A study of Mus musculus with 6 samples.

Results

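The MYC and MAX network was examined as 10 genes, Myc, Mycn, Max, Mxd1, Mxd3, Mxd4, Mxi1, Mnt, Mga and Mlx, taken by gene symbol from 24411 genes measured in bulk RNA-seq of mouse bone marrow progenitors. To ask how loss of Brd9 alters gene expression in these cells, 3 control libraries were compared with 3 Brd9 KO libraries. Brd9 encodes a bromodomain subunit of the non-canonical BAF chromatin remodelling complex. All mice were C57BL/6 and CD45.2(+). Control mice were Brd9fl/fl without Cre, and Brd9 KO mice were Mx1-Cre Brd9fl/fl. Both groups received 3 doses of pIpC at 20 mg/kg on alternate days, beginning 4 weeks after birth by the series description, and cells were taken 8 weeks after pIpC. pIpC mimics double-stranded RNA and switches on Mx1-Cre through interferon, in blood cells and also in other tissues. Because no control carried Cre, any effect of the recombinase cannot be told apart from that of deleting Brd9.

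The sources describe the cells differently. The labels give lineage-negative marrow of femora and tibiae and mention transplant recipients, whereas the study's methods give primary mice and a sort for Lin-c-Kit+. The study's text also gives the mice a greater age than the times of the series description add up to. The study speaks of biological triplicates, but the labels do not say that libraries came from separate animals, so the p-values measure the spread between these libraries, which may be partly technical. In bulk RNA, fewer cells of a type and less RNA per cell cannot be told apart.

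MAX is a small basic helix-loop-helix leucine zipper protein that binds DNA as a dimer. With MYC or MYCN it recruits coactivators to the E-box CACGTG and raises transcription of genes for ribosome production, nucleotide synthesis and cell growth. With the MXD proteins, MXI1, MNT or MGA it binds the same motif and recruits corepressors, so the partners compete for MAX. MLX is a second hub that pairs with MNT, MXD1 and MXD4 and with the glucose-sensing Mondo proteins. In marrow, MYC is needed for progenitors to leave the stem cell state and divide, and MXD proteins rise as myeloid cells mature.

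The E-box is shown first because every dimer of the network reads it. Promoter windows of 300 bases, from 250 before to 50 after each transcription start, were read from RefSeq (GRCm38.p6). Of the 10 members 9 matched. Myc had no window, so its promoter was not read. Of the 9 matched members 4 had a CACGTG, a motif that reads the same on both strands. It was in 4 of the members' 11 windows, against 2349 of all 32851 windows, a share of 7.15%. Most of the other gene lists described below were also above that share. It was 23.4% for genes that MYC activates, 18.8% for genes that it represses and 17.6% for its cofactors. It was 21.4% for the complex of MGA, 15% for MYC protein turnover, 11.1% for MLX and Mondo targets and 5.88% for SIN3. The 30 bases around each of the members' 4 matches are given with the motif in capitals. In Mxd4 (chr5:34187912-34187941, minus strand) the motif began 219 bases before the start, in Mnt (chr11:74830789-74830818, plus strand) 123 bases before, in Mlx (chr11:101087238-101087267, plus strand) 40 bases before, and in Max (chr12:76962234-76962263, minus strand) 3 bases before.
Mxd4: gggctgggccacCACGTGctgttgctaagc
Mnt: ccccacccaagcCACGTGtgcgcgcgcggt
Mlx: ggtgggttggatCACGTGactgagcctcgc
Max: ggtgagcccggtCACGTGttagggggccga
These matches are letters in a reference window and were not measured as bound in these cells. The windows of Mycn, Mxd1, Mxd3, Mxi1 and Mga held no CACGTG.

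Library totals ran from 21151031 to 28500168 expected counts, which are RSEM's estimates of reads per gene. Levels are given as CPM, read counts scaled by TMM to a common library size, which compare 1 gene between libraries, or as TPM, which also allow for transcript length and compare genes. The targeted gene Brd9 averaged 49.0 ± 3.11 CPM over the control libraries and 16.7 ± 3.89 CPM over the Brd9 KO libraries (SD, n = 3 each) without overlap, so the libraries matched their labels (exact two-sided permutation test, p = 0.1, the smallest that 3 against 3 allows). The progenitor receptor Kit was at 205 to 229 CPM in control and 178 to 269 CPM in Brd9 KO. Among mature lymphoid markers, Ms4a1 of B cells was at 0.491 to 0.946 CPM and Cd3e of T cells at 1.05 to 2.41 CPM. Cd79a of B-lineage cells was at 33.5 to 85.1 CPM and Nkg7, listed as a cytotoxic cell gene, at 121 to 306 CPM. Other natural killer and cytotoxic genes of the list were far lower. Klrb1c was at 2.47 to 5.63 CPM, Ncr1 at 1.64 to 5.98 CPM and Cd8a at 0.870 to 2.33 CPM. Which cells held the Nkg7 RNA was not tested. Late neutrophil markers set Brd9 KO 3 apart, with a summed level of 8187 CPM against 1409 and 1611 CPM in Brd9 KO 1 and 2 and 1948 to 3391 CPM in control. Genes were called at an adjusted p under 0.1 in edgeR's quasi-likelihood test with Benjamini-Hochberg adjustment over 12953 genes, and all 10 members passed its filter on low counts.

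Loss of Brd9 was accompanied by lower Myc and higher Mycn, Mxd1 and Mnt. Of the 10 members, 3 rose, 1 fell and 6 did not pass the test. Over all genes 15.4% were called, 9.19% higher and 6.25% lower. The same 4 members were the ones whose CPM did not overlap between the groups, as was the case for 33.5% of all genes. The median log2 fold change of the 10 members was 0.26, beside 0.02 over all genes tested.

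**Figure D1:**
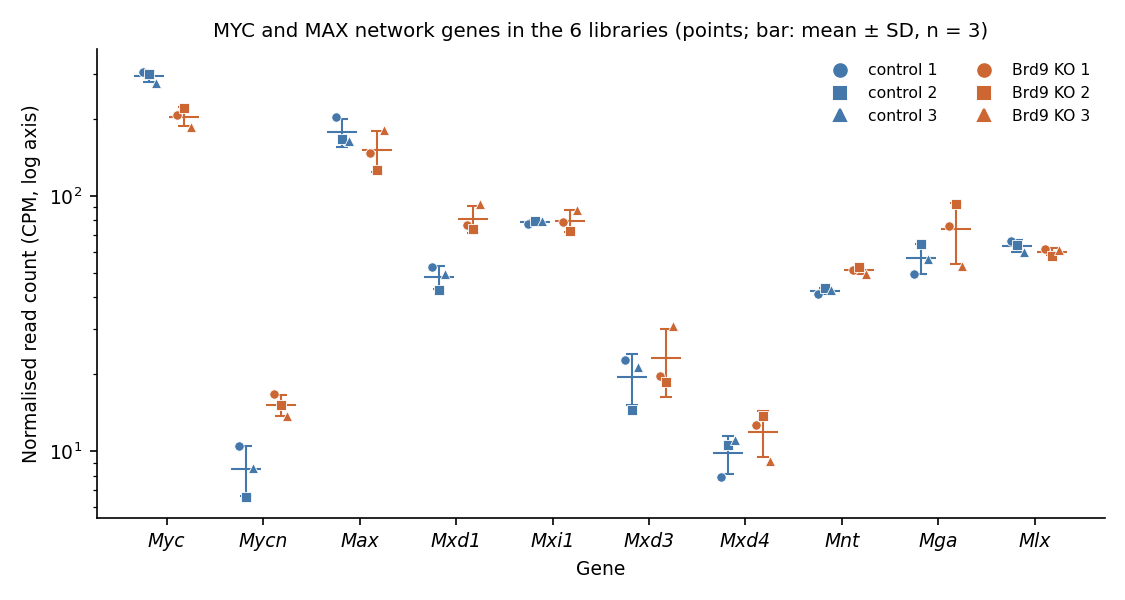
Normalised read count (CPM, log axis) of the 10 network genes in each library, with control in blue and Brd9 KO in orange. Points are single libraries and bars are the mean ± SD of 3 libraries. The groups are apart for Myc (276 to 305 against 186 to 220 CPM), Mycn, Mxd1 and Mnt, and overlap for the other members.

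Myc (chromosome 15, 61985391 to 61990374 in mm10, plus strand) encodes the network's main activator in dividing progenitors. It was at 305, 301 and 276 CPM in the control libraries and 207, 220 and 186 CPM in the Brd9 KO libraries. Every Brd9 KO library was below every control library. The means were 294 ± 15.7 and 204 ± 17.4 CPM (SD, n = 3 each), a log2 fold change of -0.52 ± 0.11 (SE, edgeR adjusted p = 0.028). Without control 2 the log2 fold change was -0.51 (adjusted p = 0.101) and without Brd9 KO 1 it was -0.53 (adjusted p = 0.116). The call was thus lost in both cases with the estimate little changed. Genes called over the whole data set numbered 729 and 641 there, in place of 1999. Without Brd9 KO 3, the library high in neutrophil markers, the log2 fold change of Myc was -0.46 (adjusted p = 0.0267).

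On the TPM scale Myc overlapped between the groups, at 148, 183 and 159 TPM in control and 139, 161 and 101 TPM in Brd9 KO, and limma on log2(TPM + 1) gave a log2 fold change of -0.31 (adjusted p = 0.322). That scale also moved the median of all genes up by 0.17, and relative to the median Myc was at -0.49 on it, beside -0.54 with TMM. Immediate early genes, which serum and handling induce as they induce Myc, moved in the same direction. Of 11 such genes 5 fell and none rose, where 6.25% of all genes fell and 9.19% rose. Their summed level was 1130 to 1423 CPM in control and 534, 451 and 886 CPM in Brd9 KO. Fos, which encodes an AP-1 subunit, was at 220, 214 and 247 CPM in control and 48.4, 42.1 and 89.5 CPM in Brd9 KO. Their part in the level of Myc was not tested.

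Mycn (chromosome 12, 12936093 to 12941914, minus strand) encodes the second MYC protein, which is active in stem cells and can take the place of MYC there. It was at 10.4, 6.62 and 8.54 CPM in control and 16.7, 15.1 and 13.7 CPM in Brd9 KO. The lowest Brd9 KO library exceeded the highest control library. The means were 8.52 ± 1.89 and 15.2 ± 1.46 CPM (SD, n = 3 each), a log2 fold change of 0.83 ± 0.19 (SE, edgeR adjusted p = 0.0406). The adjusted p passed 0.1 when control 2 (0.108), control 3 (0.117), Brd9 KO 1 (0.145) or Brd9 KO 2 (0.103) was left out, with log2 fold changes of 0.67 to 0.83. Mycn remained the minor of the pair, with 2.02 to 3.14 TPM per 100 TPM of Myc in control and 6.27 to 7.38 in Brd9 KO.

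Max (chromosome 12, 76937269 to 76962201, minus strand), the partner that all of these proteins share, was at 204, 167 and 163 CPM in control and 147, 126 and 181 CPM in Brd9 KO. The groups overlapped through Brd9 KO 3, and the log2 fold change of -0.24 ± 0.16 did not pass the test (adjusted p = 0.358). Without Brd9 KO 3 it was -0.38 (adjusted p = 0.0817), in a fit that called 4150 genes over the whole data set in place of 1999. Max was counted from 2 transcripts, and their abundance-weighted mean length was 1984.1, 1983.5 and 1983.2 bases in control and 1986.3, 1987.1 and 1985.7 bases in Brd9 KO. These ranges did not overlap, with a difference of 2.78 bases between the means. Among the 3694 genes whose weighted length could vary, 7.96% did not overlap, and the other members of this kind, Myc, Mxi1, Mga and Mlx, overlapped.

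Mxd1 (chromosome 6, 86647042 to 86669161, minus strand) encodes the MAX partner that replaces MYC as granulocytes leave the cell cycle. It was at 52.7, 42.7 and 49.1 CPM in control and 77.0, 74.2 and 92.6 CPM in Brd9 KO. All 3 Brd9 KO libraries were above the control range. The means were 48.2 ± 5.05 and 81.3 ± 9.92 CPM (SD, n = 3 each), a log2 fold change of 0.75 ± 0.13 (SE, edgeR adjusted p = 0.0148). Mxd1 was the only member called in all 17 alternative settings and left-out libraries, with log2 fold changes of 0.61 to 0.96. Of 13 late neutrophil markers tested 1 rose (Itgam) and 1 fell (Camp), where 9.19% of all genes rose and 6.25% fell. Brd9 KO 3, the highest library for Mxd1, was also the highest for the sum of these markers. Without that library the log2 fold change of Mxd1 was 0.65 (adjusted p = 0.0104). The part of neutrophil transcripts in the level of Mxd1 was not tested.

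Mnt (chromosome 11, 74830920 to 74845725, plus strand) encodes the most widely expressed antagonist, which is present in resting and dividing cells alike. It was at 41.0, 43.4 and 42.6 CPM in control and 51.2, 52.6 and 49.5 CPM in Brd9 KO. The groups were apart with a narrow spread in each. The log2 fold change was 0.27 ± 0.09 (SE, edgeR adjusted p = 0.0994). This call lay at the threshold and held in 3 of 17 alternatives, which were the library total alone, DESeq2 and leaving out Brd9 KO 3. Leaving out any other library ended it (adjusted p 0.190 to 0.295).

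The other antagonists did not pass the test. Mxi1 (chromosome 19, 53310518 to 53375810, plus strand), an MXD protein that acts with SIN3, was at 77.8, 80.0 and 79.4 CPM in control and 78.8, 72.9 and 88.1 CPM in Brd9 KO, a log2 fold change of 0.02 ± 0.10 (adjusted p = 0.933). Mxd3 (chromosome 13, 55325168 to 55329823, minus strand), a family member found in dividing cells, had a log2 fold change of 0.24 ± 0.24 (adjusted p = 0.548), with 14.5 to 22.7 CPM in control and 18.7 to 31.0 CPM in Brd9 KO. On the TPM scale, which moved the median of all genes up, Mxd3 did not overlap. It was at 17.63 to 24.65 TPM in control and 26.3 to 33.77 TPM in Brd9 KO, and limma on log2(TPM + 1) did not call it (adjusted p = 0.193). Mxd4 (chromosome 5, 34173883 to 34187720, minus strand) had a log2 fold change of 0.28 ± 0.21 (adjusted p = 0.419), with 7.91 to 11.0 CPM in control and 9.11 to 13.8 CPM in Brd9 KO. For these 3 genes and Mlx, exons overlap a gene on the other strand, and because the sources differ on whether the libraries were stranded, their values may hold reads of that neighbour.

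Mga (chromosome 2, 119897228 to 119969581, plus strand) encodes a very large MAX partner that anchors a polycomb complex. It was at 49.4, 64.7 and 56.5 CPM in control and 76.0, 92.7 and 52.9 CPM in Brd9 KO. Brd9 KO 3 lay within the control range while the other Brd9 KO libraries were above it. The log2 fold change was 0.38 ± 0.20 (adjusted p = 0.264), and without Brd9 KO 3 it was 0.57 (adjusted p = 0.0328). The fit without Brd9 KO 3 called 4150 genes over the whole data set, in place of 1999. Mlx (chromosome 11, 101087277 to 101092207, plus strand) had overlapping groups at 60.2 to 66.6 CPM in control and 58.2 to 61.7 CPM in Brd9 KO, a log2 fold change of -0.08 ± 0.09 (adjusted p = 0.596).

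Read counts also moved with transcript length across the whole data set, and the members span a wide range of it. In the shortest quintile of genes tested, up to 1543 bases, the median log2 fold change was -0.22 and 10.3% of genes were called lower. In the longest quintile, from 4546 bases, the median was 0.22 and 16.9% were called higher. The trend divided the libraries unequally. Relative to the control mean the longest quintile had a median of 0.26 and 0.37 (log2) in Brd9 KO 1 and 2, 0.01 in Brd9 KO 3, and -0.17, 0.11 and 0.06 in control 1, 2 and 3.

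**Figure D2:**
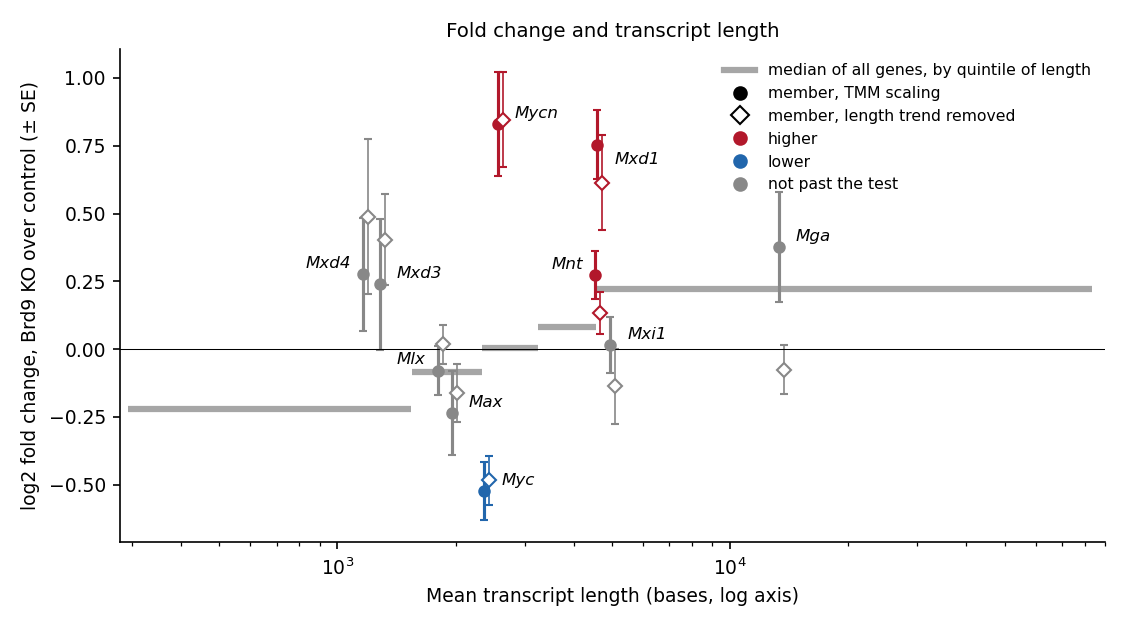
Log2 fold change of each member (± SE) against its mean transcript length in bases (log axis), with TMM scaling (filled circles) and after each library's length trend was removed (open diamonds). Grey bars are the median of all genes in each quintile of length, from -0.22 in the shortest to 0.22 in the longest. Myc, Mycn and Mxd1 stay away from the grey bars under both scalings, whereas Mga goes from 0.38 to -0.08 and Mnt from 0.27 to 0.13.

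A fit that removed each library's trend on length, added after the data were seen, kept the calls of Myc, Mycn and Mxd1. Myc (2398 bases) had a log2 fold change of -0.48 ± 0.09 (adjusted p = 0.0156), Mycn (2596 bases) 0.85 ± 0.18 (adjusted p = 0.0217) and Mxd1 (4661 bases) 0.61 ± 0.18 (adjusted p = 0.0587). Mnt (4586 bases) fell short of the threshold at 0.13 ± 0.08 (adjusted p = 0.279). The 2 shortest members moved the other way, Mxd4 (1179 bases) to 0.49 ± 0.29 (adjusted p = 0.289) and Mxd3 (1299 bases) to 0.40 ± 0.17 (adjusted p = 0.147). Mga, the longest at 13511 bases, was at -0.08 ± 0.09 (adjusted p = 0.611), and Mxi1 (5022 bases) at -0.14 ± 0.14 and Mlx (1828 bases) at 0.02 ± 0.07 also changed sign, neither being called under any setting.

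Per length, Myc and Max were the most abundant members and Mycn and Mga the least. In control the mean levels were 163.5 TPM for Myc, 121 TPM for Max and 47.9 TPM for Mlx, each apart from the next. Mxd3 (21.4 TPM) and Mxi1 (20.1 TPM) overlapped each other, as did the neighbours Mxd1 (13.1 TPM), Mxd4 (12.4 TPM) and Mnt (11.8 TPM), and lastly Mga (5.30 TPM) and Mycn (4.29 TPM). In Brd9 KO, Myc (134 TPM) overlapped Max (119 TPM). Mxd1 stood above Mxi1 there, at 24.9 to 26.7 TPM against 21.8 to 24.2 TPM, whereas in control it stood below, at 12.7 to 13.9 TPM against 17.4 to 22.1 TPM. Mycn at 9.07 TPM and Mga at 8.04 TPM overlapped in Brd9 KO.

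The make-up of the pool of MAX partners differed between the groups. Myc and Mycn together took 67.2%, 68.4% and 64.1% of the TPM summed over 8 partners in the control libraries and 55.3%, 56.6% and 49.6% in the Brd9 KO libraries. The groups did not overlap, with means of 66.6% ± 2.18 and 53.8% ± 3.74 (SD, n = 3 each). Since its members were chosen with results known, this share was not tested. The difference was -12.7 percentage points, -13.6 on CPM, -12.5 without Mga and -11.6 with the length trend removed. Transcript shares do not measure how much of each protein is bound to MAX.

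**Figure D3:**
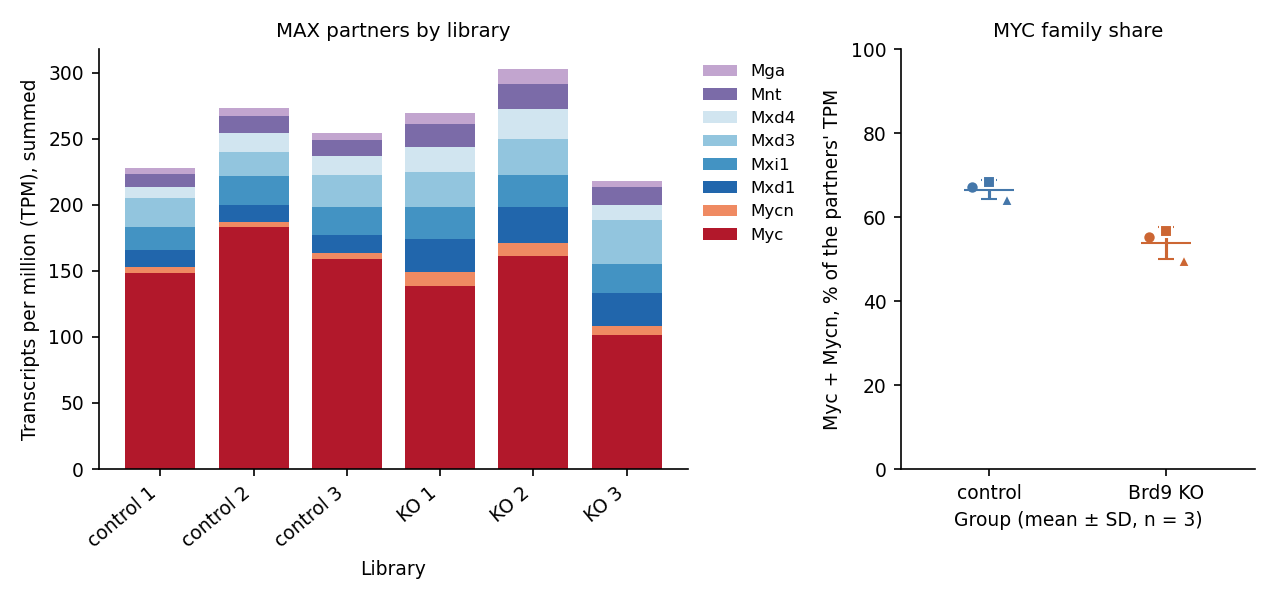
Left, TPM of the 8 MAX partners stacked by library, with the MYC family in red and orange and the antagonists in blue and purple. Right, the share of Myc and Mycn in that sum (percent), with points for libraries and the mean ± SD of 3 libraries; all control libraries (64.1% to 68.4%) are above all Brd9 KO libraries (49.6% to 56.6%).

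On the TPM scale, which moved the median of all genes up by 0.17 (log2), the antagonists' sum was apart between the groups and that of the MYC family was not. The summed TPM of Mxd1, Mxd3, Mxd4, Mxi1, Mnt and Mga was 74.8, 86.5 and 91.3 in the control libraries and 120, 131 and 110 in Brd9 KO, without overlap. The sum of Myc and Mycn was 153, 187 and 163 TPM in control and 149, 171 and 108 TPM in Brd9 KO, with overlap. Mxd1 had 8.53, 6.98 and 8.77 TPM per 100 TPM of Myc in control and 18.3, 16.6 and 24.6 in Brd9 KO. Max, at 45.6 to 53.7 TPM per 100 TPM of its partners in control and 37.6 to 55.6 in Brd9 KO, overlapped.

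Most listed genes that MYC is known to activate had lower levels in Brd9 KO. The list was chosen with earlier results of these data known, so its counts are a description and were not tested as a set. Of 40 such genes, chosen for roles in ribosome biogenesis, polyamine and nucleotide synthesis, mitochondrial folding and the cell cycle, 17 fell, 0 rose and 23 did not pass edgeR's test. Of all genes 6.25% fell. DESeq2 called 20 as falling and 0 as rising, where 8.7% and 10.3% of all genes did so. At an unadjusted p under 0.05 in edgeR these numbers were 24 and 0, beside 12.6% and 14.8% of all genes. The list's median log2 fold change was -0.36, beside 0.02 over all genes, 38 of the 40 were below 0, and in 26 the Brd9 KO libraries were all below the controls, as in 16.3% of all genes. Ccnd2 (0.10, adjusted p = 0.851) and E2f2 (0.23, adjusted p = 0.471), both cell cycle genes, were the members above 0.

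The 4 called with the smallest p serve mitochondria and ribosomes. Phb2, a prohibitin of the mitochondrial inner membrane, was at 372, 355 and 321 CPM in control and 258, 233 and 247 CPM in Brd9 KO (a log2 difference of -0.51 ± 0.10, adjusted p = 0.0287). Its partner Phb was at 265, 241 and 193 CPM in control and 166, 145 and 155 CPM in Brd9 KO (-0.58 ± 0.14, adjusted p = 0.0414). Wdr12, which processes the large ribosomal subunit, was at 123, 122 and 99.9 CPM against 84.9, 76.3 and 74.6 CPM (-0.55 ± 0.12, adjusted p = 0.0338), and Ppan, another large-subunit factor, at 167, 155 and 146 CPM against 110, 98.1 and 123 CPM (-0.49 ± 0.12, adjusted p = 0.0437). All 4 were lower in every Brd9 KO library than in any control library. Others that fell were Npm1 and Fbl of the nucleolus (-0.46 and -0.55), the polyamine enzymes Odc1 and Srm (-0.36 and -0.47), and Hspe1, the mitochondrial co-chaperonin (-0.60).

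Cdk4, a G1 kinase and a classical MYC target, was at 646, 544 and 533 CPM in control and 444, 384 and 441 CPM in Brd9 KO (-0.44 ± 0.12, adjusted p = 0.0666). Its promoter is shown because it held more E-boxes than any other of the list's 34 genes with a window, at 172, 118, 98 and 11 bases before the start on the plus strand (GRCm38.p6; chr10:127063351-127063380, chr10:127063405-127063434, chr10:127063425-127063454 and chr10:127063512-127063541).
Cdk4 site 1: atggcagccagtCACGTGccacacagcgta
Cdk4 site 2: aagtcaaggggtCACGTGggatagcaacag
Cdk4 site 3: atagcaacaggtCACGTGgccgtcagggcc
Cdk4 site 4: aagggtgaagatCACGTGtccagaacgtcc
A single motif lay 232 bases before the start of Phb (chr11:95666713-95666742, plus strand).
Phb: ttgaggaataggCACGTGcatatattacca
Of these 34 genes 10 held CACGTG (29.4%), as did 3 of 12 genes that MYC represses (25%) and 8.09% of all genes.

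**Figure D4:**
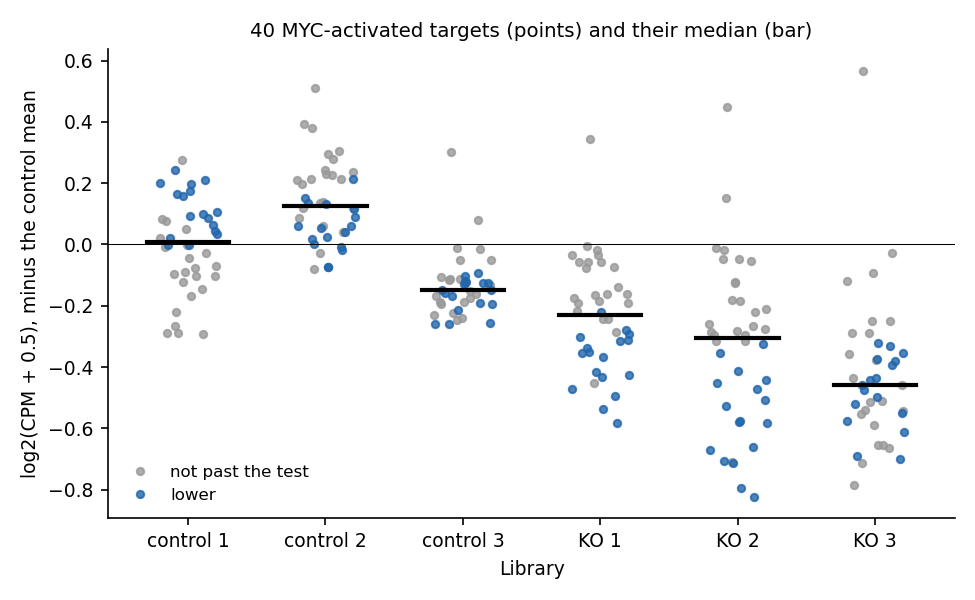
Log2(CPM + 0.5) of 40 MYC-activated targets in each library minus the gene's control mean, with each gene a point (blue if called lower, grey if not past the test) and the list's median a bar. The medians are 0.01, 0.13 and -0.15 in control 1, 2 and 3 and -0.23, -0.30 and -0.46 in Brd9 KO 1, 2 and 3.

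By library the list's median relative to the control mean was 0.01, 0.13 and -0.15 (log2) in the control libraries and -0.23, -0.30 and -0.46 in Brd9 KO, so control 3 lay nearest to the Brd9 KO libraries. The count of 17 was smaller when any library but Brd9 KO 3 was left out. It was 3 without control 1, 0 without control 2 and 10 without control 3. It was 1 without Brd9 KO 1, 0 without Brd9 KO 2 and 17 without Brd9 KO 3. Falls over all genes numbered 809 with 6 libraries, and 325, 245, 346, 179, 223 and 2009 in the same order. Of the 40 genes, 8 lay in the shortest quintile of length and 13 in the next. With the length trend removed 22 fell, 0 rose and the list's median was -0.33, where 10% of all genes fell and 11.9% rose. Of 18 proliferation markers 1 fell (Rrm2) and 0 rose, where 6.25% of all genes fell and 9.19% rose. By log2 fold change 16 of the 18 were below 0 and 2 above, with a median of -0.16, beside 0.02 over all genes. In 5 the Brd9 KO libraries were all below the controls and in 1 all above, beside 16.3% and 17.2% of all genes. The summed levels of the 18 markers were 5680 to 6315 CPM in control and 5444 to 5842 CPM in Brd9 KO. The part of transcript length and of proliferation in the list's level was not tested.

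Genes that MYC is known to repress showed no common direction. Of 13, 12 were tested, 1 rose, 1 fell and 10 did not pass, with a median of -0.01. These counts are near the shares of all genes, of which 9.19% rose and 6.25% fell. Cebpa, a myeloid transcription factor, rose from 194 ± 4.63 to 252 ± 9.24 CPM (SD, n = 3; 0.38 ± 0.09, adjusted p = 0.0447). Ndrg2, a differentiation gene, fell from 15.5 ± 1.70 to 10.7 ± 0.283 CPM (-0.54 ± 0.14, adjusted p = 0.0547). The cell cycle inhibitor Cdkn1a was at -0.32 ± 0.17 (adjusted p = 0.262). Each of these calls was lost without control 2, control 3, Brd9 KO 1 or Brd9 KO 2, when the count in that direction was 0.

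Targets of MLX and the Mondo proteins, which answer to glucose, gave calls in both directions. Of 9, 8 were tested, 3 rose, 1 fell and 4 did not pass, with a median of 0.26, where 9.19% of all genes rose and 6.25% fell. Pklr, the liver and red cell pyruvate kinase, was at 91.8, 110 and 114 CPM in control and 54.2, 63.5 and 45.6 CPM in Brd9 KO (-0.95 ± 0.15, adjusted p = 0.0114), and stayed called when any library was left out but in none of the 3 fits on TPM. Hk2, a hexokinase, was at 57.3, 71.7 and 67.5 CPM in control and 96.4, 96.2 and 90.0 CPM in Brd9 KO (0.52 ± 0.11, adjusted p = 0.0325). Txnip, an inhibitor of glucose uptake, rose from 284 ± 46.6 to 445 ± 88.2 CPM (0.65 ± 0.18, adjusted p = 0.0652), and Klf10 from 30.9 ± 5.24 to 41.5 ± 2.15 CPM (0.42 ± 0.14, adjusted p = 0.0966). The count of 3 was 1 without control 1 or control 2 and 0 without Brd9 KO 1. Pklr is also an erythroid gene, and of 12 erythroid markers 7 fell, their sum being 2935 to 3493 CPM in control and 1778 to 2546 CPM in Brd9 KO. The part of fewer erythroid transcripts in the level of Pklr was not tested.

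Cofactors through which the dimers act were called at about the share of all genes. Of 14 MYC cofactors and other network genes tested, 1 rose, 1 fell and 12 did not pass, with a median of -0.08, and 15.4% of all genes were called. Trrap, the scaffold of MYC's acetyltransferase complexes, was at 69.7, 92.5 and 85.3 CPM in control and 108, 125 and 102 CPM in Brd9 KO (0.44 ± 0.14, adjusted p = 0.0928). Ruvbl1, an ATPase of the same complexes, was at 150, 143 and 120 CPM in control and 112, 99.5 and 96.8 CPM in Brd9 KO (-0.42 ± 0.12, adjusted p = 0.0742). With the length trend removed the count of rises was 0. Without any one of control 1 to 3 or Brd9 KO 1 and 2 the count of rises was 0. Without Brd9 KO 3 it was 4, where 2141 of 13124 genes tested rose. The count of falls was 0 without control 1, control 2, Brd9 KO 1 or Brd9 KO 2. Mycl, the remaining MYC family gene, was at -0.74 ± 0.24 and did not pass the test (adjusted p = 0.105).

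In the SIN3 corepressor, to which MXD proteins and MNT bind, 0 of 16 genes were called by edgeR. At an unadjusted p under 0.05, 2 were higher and 2 lower, close to the shares of all genes (14.8% higher and 12.6% lower), and DESeq2 called 0 higher and 2 lower, beside 10.3% and 8.7% of all genes. Its most abundant members, the histone chaperones Rbbp4 and Rbbp7, were at 443 to 535 and 345 to 393 CPM in control and 381 to 488 and 289 to 334 CPM in Brd9 KO (adjusted p = 0.463 and 0.149). Without Brd9 KO 3, 3 were called higher and 3 lower, where 2141 and 2009 of 13124 genes tested were so called. In the polycomb complex PRC1.6, which MGA holds together, 1 of 12 fell and 0 rose, beside 6.25% and 9.19% of all genes. That gene was Pcgf6, the subunit that defines the complex, from 24.3 ± 1.97 to 17.9 ± 2.35 CPM (-0.44 ± 0.14, adjusted p = 0.0885), and it was lost when any library other than Brd9 KO 3 was left out. At an unadjusted p under 0.05, 1 was higher and 2 lower, and DESeq2 called 0 higher and 2 lower.

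Of 15 tested genes that set the stability of MYC protein, 0 were called by edgeR, where 15.4% of all genes were called. At an unadjusted p under 0.05, 1 was higher and 3 lower, beside 14.8% and 12.6% of all genes. DESeq2 called 0 higher and 1 lower, beside 10.3% and 8.7% of all genes. The ubiquitin ligase Fbxw7, which marks MYC for degradation, was at 0.28 ± 0.14 (adjusted p = 0.232). Set, an inhibitor of the phosphatase PP2A, was at 809 to 1001 CPM in control and 680 to 782 CPM in Brd9 KO (adjusted p = 0.132), and Ppp2r5a, a PP2A subunit, at 180 to 207 and 198 to 268 CPM (adjusted p = 0.361). Without Brd9 KO 3, 2 were called higher and 2 lower, where 2141 and 2009 of 13124 genes tested were so called. MYC protein itself was not measured.

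Marker genes of several cell types moved with the groups, where 9.19% of all genes rose and 6.25% fell. Of 12 progenitor markers 3 fell (Mpo, Elane and Cd27) and none rose. The sum of all 12 was 18564 to 22291 CPM in control and 12092 to 13929 CPM in Brd9 KO. Mpo alone averaged 10316 CPM of it in control and 5248 CPM in Brd9 KO, so the sum largely follows Mpo. By log2 fold change 9 of the 12 were below 0 and 3 above, namely Kit (0.11), Cd34 (0.16) and Myb (0.28), none of these 3 being called. Rises were called in 7 of 10 megakaryocyte markers, 6 of 7 mast cell and basophil markers and 5 of 6 eosinophil markers. They were also called in 6 of 8 macrophage markers and 9 of 12 stromal and endothelial markers. Falls were called in 1 eosinophil marker (Epx) and 2 macrophage markers (Vcam1 and Cd163). The summed level of the macrophage markers overlapped, at 94.6 to 133 CPM in control and 96.8 to 143 CPM in Brd9 KO. Vcam1 alone averaged 66.1 CPM of this sum in control and 25.0 CPM in Brd9 KO, so the sum does not show the 6 rises. In 6 of the 8 the Brd9 KO libraries were all above the controls and in 2 all below, beside 17.2% and 16.3% of all genes. The summed level of the stromal and endothelial markers was 43.0 to 57.7 CPM in control and 108 to 167 CPM in Brd9 KO. Of 11 mature lymphoid markers tested 2 rose and 1 fell. No marker in these lists was at 0 in all libraries. The part of these differences in cell make-up in the levels of the network genes was not tested.

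The genes whose pattern over the 6 libraries was most like that of Myc were Oat, 9030617O03Rik and Art4, by the mean absolute difference of centred log2 CPM among 11271 genes. Their distances were 0.04 (log2) each. Oat, a mitochondrial aminotransferase, was at 177, 170 and 163 CPM in control and 124, 120 and 109 CPM in Brd9 KO.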

How the data were processed

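Poly(A)-selected RNA of 6 libraries was sequenced. The authors aligned reads to mm10, a build also named in the submitters' notes, using STAR with RSEM in nf-core, according to their methods. The deposited files hold RSEM's expected counts per gene, an estimated count that need not be whole, and TPM, which the authors' RSEM run scaled by length. They also hold weighted transcript lengths in bases, and FPKM that the authors' RSEM run scaled by length and depth, which were not used. Labels and methods disagree on strandedness.

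Expected counts were rounded, filtered with filterByExpr, scaled by TMM and tested without covariates by the quasi-likelihood method of edgeR 4.0.16 under R 4.3.3. Genes with a Benjamini-Hochberg adjusted p under 0.1 over 12953 genes, the study's threshold, were called. The study's DESeq2 with independent hypothesis weighting was not run. Counts of the 10 members were whole in every library, and library pairs of 1 group differed by more than counting noise. Each SE was obtained as the log2 fold change over the square root of F. Tested on simulated counts with 12833 genes tested, the fit recovered 25.4% of genes changed 1.5-fold, 77.6% changed 2-fold and 95.5% changed 4-fold, and 12.6% of 151 calls were false. The simulation changed only 67, 67 and 66 genes at these folds, whereas 1999 genes were called in the data. Recovery in the data may therefore differ. Members had 157 to 8046 counts per library, so counting error was largest for Mycn.

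The members and the gene lists were chosen with earlier results of these data known. The genes named with values are the members, up to 4 called genes of each list with the smallest p, or the 2 most abundant where none was called, and Brd9. Kit, Cd3e, Ms4a1, Cd79a, Nkg7, Mycl, Fbxw7, Cdkn1a, Fos, Cdk4, Ccnd2, E2f2 and the further falls given by symbol were named after their values were seen. The same holds for Cd34, Myb, Klrb1c, Ncr1 and Cd8a. Cip2a, Ly6g and Ighm were not matched by symbol. Mlxipl, Cdkn2b, G6pc, Cma1 and Timd4 were not tested because of low counts. Alternatives were DESeq2 1.42.0, limma 3.58.1 on counts and on log2(TPM + 1) and log2(TPM + 0.1), other scalings, no filter, an adjusted p under 0.05, a block on replicate number and leaving out each library. Positions were taken from GENCODE M21.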

Additional observations from a re-analysis of the deposited data

How the results depend on the processing

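The directions of the 4 called members held under all 17 alternatives. Called genes numbered 1999, and 641 to 4150 with 1 library left out (4150 without Brd9 KO 3, which stands apart in neutrophil markers), 1146 with limma on log2(TPM + 1) without a filter and 1015 at an adjusted p under 0.05. Of the calls 59.5% were rises, 74.1% with library totals alone, 83.3% and 84.0% with limma on log2(TPM + 1) and log2(TPM + 0.1), and 51.6% to 72.2% with 1 library left out. Members called higher were 1 to 4 and lower 0 to 2 with 1 library left out. On TPM (all 3 limma fits) no member was lower, 0 in place of 1, and the counts were 0 for cofactors, 0 for falls in PRC1.6, 0 for falls among MYC-repressed genes, 0 for falls among Mondo targets, 2 for falls among MYC-activated genes in place of 17, and 3 for rises among MYC-repressed genes in place of 1. Rises among Mondo targets were 1 in place of 3 on TPM without a filter.

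With library totals alone, 9 MYC-activated genes fell, 0 cofactors, 0 genes of PRC1.6 and 0 MYC-repressed genes fell, and 2 MYC-repressed genes rose. With DESeq2, 2 cofactors rose and 2 fell, 2 SIN3 genes, 2 PRC1.6 genes and 1 turnover gene fell, and 2 MYC-repressed genes rose. At an adjusted p under 0.05, 4 MYC-activated genes and 0 cofactors, PRC1.6 or MYC-repressed genes fell, 0 cofactors and 1 Mondo target rose. With the length trend removed, an alternative added after the data were seen, 0 cofactors, 1 PRC1.6 gene and 2 MYC-repressed genes rose, and 2 turnover genes fell. The cause of these shifts was not tested.

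With 1 library left out, MYC-activated falls ranged from 0 to 17, cofactor rises from 0 to 4 and falls from 0 to 2, SIN3 rises from 0 to 3 and falls from 0 to 3, PRC1.6 falls from 0 to 2, turnover rises from 0 to 2 and falls from 0 to 2, MYC-repressed rises from 0 to 1 and falls from 0 to 3, and Mondo rises from 0 to 3. Over all genes, falls then ranged from 179 to 2009 and rises from 462 to 2141. The difference in MYC family share ranged from -14.1 to -10.6 percentage points with 1 library left out.

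Same-numbered libraries deviated together in 1 of 3 pairs (r = -0.098, 0.611 and 0.011), and not every library correlated best with its own number, so the numbers were not taken to pair them. With the replicate block 2077 genes were called, 2 members were higher and 1 lower, Mnt not passing (adjusted p = 0.138), 15 MYC-activated genes fell, 2 cofactors rose and 2 fell, and 2 MYC-repressed genes rose.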

Other observations

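CACGTG was present in the promoter windows of 2 of 13 matched MYC-activated targets that were called lower and 8 of 21 that were not called. No test was made of this difference. Among the MYC-activated genes not past the test, Nme1 (log2 fold change -0.49 ± 0.16, adjusted p = 0.106) held CACGTG in 2 windows and Ldha (-0.15 ± 0.14, adjusted p = 0.524) held it at 2 places.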
